A study of Mus musculus with 8 samples.

Results

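The genes described here are 50 mouse genes that act in mitosis: cyclins and kinases of mitotic entry, the 2 transcription factors FoxM1 and B-Myb, and proteins of chromosomes, kinetochores, the spindle and cytokinesis. They were listed by name, with earlier results of these data known. Of the probe sets that map to 1 gene symbol, that with the highest mean signal stood for each gene. Of the 50 genes, 48 had such a probe set and all 48 passed the filter on dim genes. Ccnb1 and Nuf2 were read by no probe set of 1 symbol and are not analysed here. The arrays held 17097 genes with 1 symbol, of which 14403 were tested.

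Cells make most of these transcripts late in the cycle, between the end of DNA replication and the exit from mitosis, and resting cells carry little of them. In epidermis and in basal cell carcinoma they mark the dividing fraction of the basal layer. Their promoters are known to share a switch: complexes built on the MuvB core silence them in resting cells and, with B-Myb and FoxM1, turn them on before mitosis.

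By its title, the study concerned a slowly cycling cell population marked by Lgr5 and its part in the return of basal cell carcinoma after treatment. All mice carried the same alleles, given as K14-CreER/Ptch1cKO, in which a keratin 14 promoter drives an inducible Cre recombinase in keratinocytes and the Cre removes Ptch1, the receptor that holds the Hedgehog pathway off. Epidermal cells of the back skin were stained for Lrig1 and sorted by an Lgr5-GFP reporter into Lgr5-positive and Lgr5-negative cells, both of them Lrig1-positive (the labels spell the negative population "Lrg5-"). RNA was measured in 8 arrays, 1 for each population of each mouse, which form 4 groups of 2: vismodegib Lgr5-positive, vismodegib Lgr5-negative, untreated Lgr5-positive and untreated Lgr5-negative cells. Vismodegib is an inhibitor of Smoothened, the activator of the Hedgehog pathway that Ptch1 restrains. The labels state neither its dose and duration nor a vehicle, nor how old the mice were. Both populations of a mouse came from the same animal, so each treatment rests on 2 mice.

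Values are log2 signals, and 1 unit is a 2-fold difference. Column medians lay between 6.13 and 6.20, and the number of arrays limits the precision. Lgr5 read 9.44 and 10.03 in vismodegib Lgr5-positive cells, 5.46 and 4.83 in vismodegib Lgr5-negative cells, 10.98 and 11 in untreated Lgr5-positive cells, and 8.52 and 8.399 in untreated Lgr5-negative cells, so both Lgr5-negative groups lay below the Lgr5-positive cells of the same treatment. With vismodegib the Hedgehog target Gli1 fell by 3.52 log2 units in Lgr5-positive cells and fell by 2.44 in Lgr5-negative cells. All 7 keratinocyte markers measured were above the dim level of 4.85 in every array. Linear signals summed over 14 macrophage and Langerhans cell markers were 10035 and 7573 in vismodegib Lgr5-positive cells, 5671 and 4772 in vismodegib Lgr5-negative cells, 958 and 828 in untreated Lgr5-positive cells, and 2344 and 3091 in untreated Lgr5-negative cells. The labels name no marker that would have excluded leukocytes from the sort. Summed fibroblast, endothelial, T cell and melanocyte markers lay between 186 and 567 in every array.

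Averaged over the 48 mitosis genes, the log2 signal was 6.84 and 6.85 in the 2 vismodegib Lgr5-positive arrays and 7.79 and 7.40 in the vismodegib Lgr5-negative arrays. It was 6.79 and 7.12 in untreated Lgr5-positive cells and 8.04 and 8.37 in untreated Lgr5-negative cells. All 4 Lgr5-negative arrays thus lay above all 4 Lgr5-positive arrays, while the mean over all genes tested stayed between 7.32 and 7.39. The untreated Lgr5-negative group was the highest of the 4 for 46 of the 48 genes, against 25.8% of all genes tested. The lowest group was vismodegib Lgr5-positive for 32 of them and untreated Lgr5-positive for 15, and the share of all genes was not counted for the lowest group. For 32 of the 48, each of the 4 Lgr5-negative arrays exceeded each of the 4 Lgr5-positive arrays, an order seen in 6.24% of all genes. In these sorted bulk samples, fewer dividing cells and less RNA per cell cannot be told apart.

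**Figure D1:**
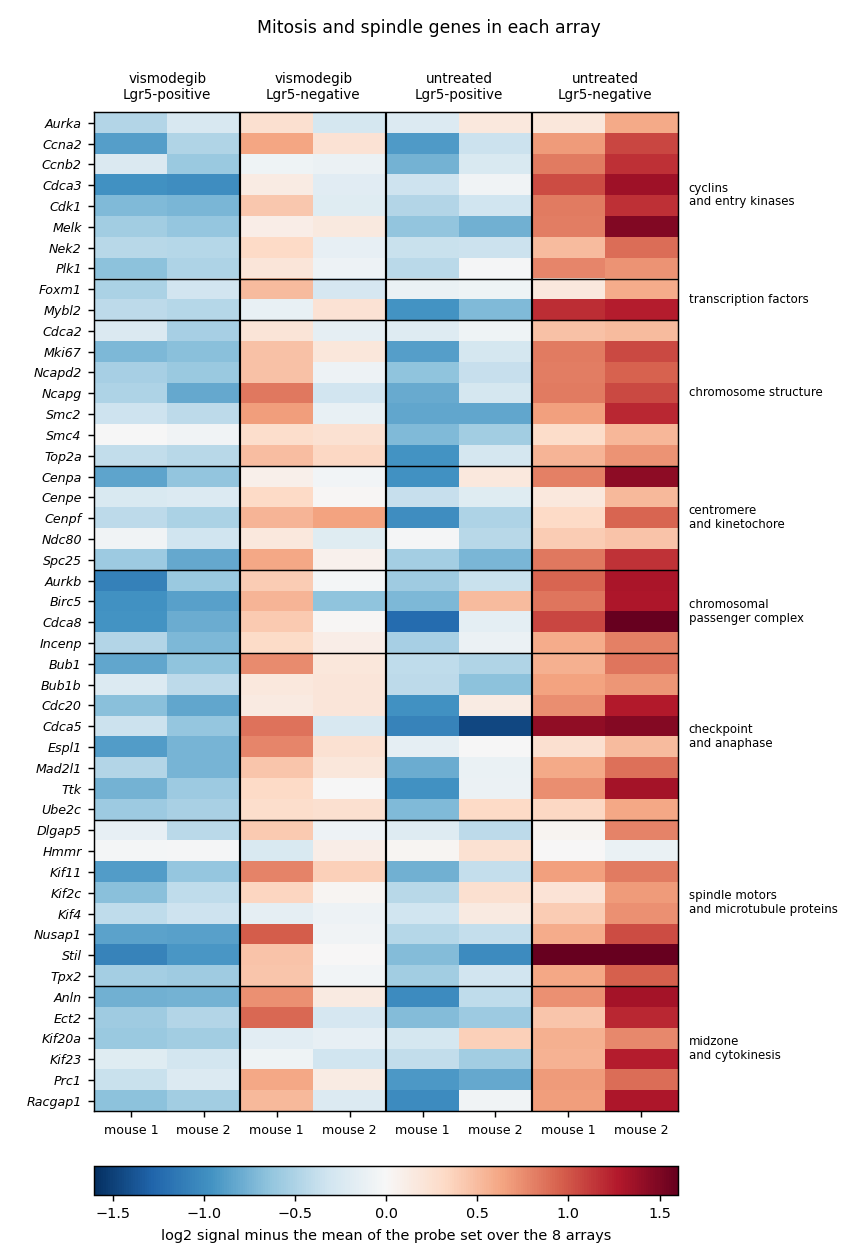
Log2 signal of the 48 mitosis genes (rows, by role) in the 8 arrays (columns, by group and mouse; the mice of the 2 treatments are different animals), as the difference from the mean of each probe set over the arrays; red is above and blue below that mean, and the colours end at 1.6 units. Nearly all rows are red in both untreated Lgr5-negative arrays, and most are blue in the Lgr5-positive arrays. Some rows, such as Birc5 and Ube2c, are red in the Lgr5-positive array of untreated mouse 2. Many rows, such as Nusap1 and Ncapg, are redder in the vismodegib Lgr5-negative array of mouse 1 than in that of mouse 2. Hmmr is almost flat with a range of 0.49 units.

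As a description over 8 arrays that share mice and processing, each gene's correlation with the mean of the other 47 had a median of 0.936 and exceeded 0.9 for 32 genes, against 2.36% of all genes. Tpx2, which activates Aurora A on spindle microtubules, was closest to the rest at 0.998. Ncapd2, a condensin subunit, followed at 0.991, and the proliferation marker Mki67 and the cytokinesis scaffold Anln both stood at 0.989. Hmmr, a spindle protein, was the only one below 0, at -0.41. The next lowest were Smc4 at 0.773 and Espl1 at 0.785.

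Between the populations of vismodegib-treated mice, 47 of the 48 genes had a lower fitted signal in Lgr5-positive than in Lgr5-negative cells, against 51.8% of all genes tested. The median difference was -0.77 on the log2 scale, a 1.71-fold lower signal, and the groups did not overlap for 44 genes, all with Lgr5-positive lower (of all genes, 22.5% did so and 21.2% did with Lgr5-positive higher). At an adjusted p under 0.05 in limma over all genes tested, 3 genes were called, all of them lower (0.132% of all genes tested were called lower and 0.34% higher): Kif11, Stil and Espl1, each with an adjusted p of 0.0475. A further 31 had unadjusted p-values under 0.05, which makes 34 in all. The share of all genes under that unadjusted level was not counted. This count and the unadjusted counts below therefore stand without a background. With the mouse as a block, which the labels support because both populations came from 1 animal, 6 genes were called lower, against 0.215% of all genes (0.514% were called higher): the same 3 with Anln, Cdca3 and Cenpf. The 3 calls were lost without either Lgr5-positive vismodegib array, without the Lgr5-negative array of vismodegib mouse 1 or without either untreated Lgr5-negative array, and 6 genes were called without the Lgr5-negative array of vismodegib mouse 2. They were also lost with no filter on dim genes or with only the 4 vismodegib arrays in the fit, and Espl1 was lost without either untreated Lgr5-positive array. Of the 14 macrophage markers, 2 were higher and 0 lower in Lgr5-positive cells of these mice.

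Between the populations of untreated mice, 38 of the 48 genes were lower in Lgr5-positive than in Lgr5-negative cells and none was higher by the same test, and 43 had an unadjusted p under 0.05. Of all genes tested, 10.9% were called lower and 6.21% higher. The median difference of the 48 was -1.35 on the log2 scale, a 2.55-fold lower signal, where the median of all genes was 0.02. The arrays of both populations did not overlap, with Lgr5-positive lower, for 46 genes, against 31.2% of all genes. Differences ranged between -2.70 for Cdca5 and 0.18 for Hmmr. Without the Lgr5-negative array of untreated mouse 2, 14 genes were called lower. Of the 14 macrophage markers, 6 were lower and none was higher in Lgr5-positive cells of these mice. Fitted signals were thus lower in Lgr5-positive cells for 47 mitosis genes in each treatment, while the called macrophage markers were higher there in vismodegib-treated and lower in untreated mice, and their part in the result was not tested.

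Of the 3 genes called in vismodegib-treated mice, 2 (Kif11 and Stil) were also called in untreated mice, which is 66.7% of the 3 and 5.26% of the 38. These comparisons share no array, but the fit of all 8 arrays gave both the same estimate of each gene's spread. The calls are thus not independent, and none was made in vismodegib-treated mice when their arrays were fitted alone. Within single mice, the signal was lower in Lgr5-positive cells for 47 genes in vismodegib mouse 1 (median -0.98, against 55.7% of all genes lower) and 46 in vismodegib mouse 2 (median -0.53, against 45% of all genes). It was lower for 47 genes in each untreated mouse, with medians of -1.34 and -1.32, against 49.1% and 47.5% of all genes. Lower signals in all 4 mice were found for 45 of the 48 genes, against 15% of all genes tested. The exceptions were Aurka and Kif23, which were lower in 3 mice, and Hmmr, lower in 1. Fitted over both treatments, 38 genes were lower in Lgr5-positive cells and none was higher, against 8.37% of all genes called lower and 5.44% higher, with a median of -1.09.

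**Figure D2:**
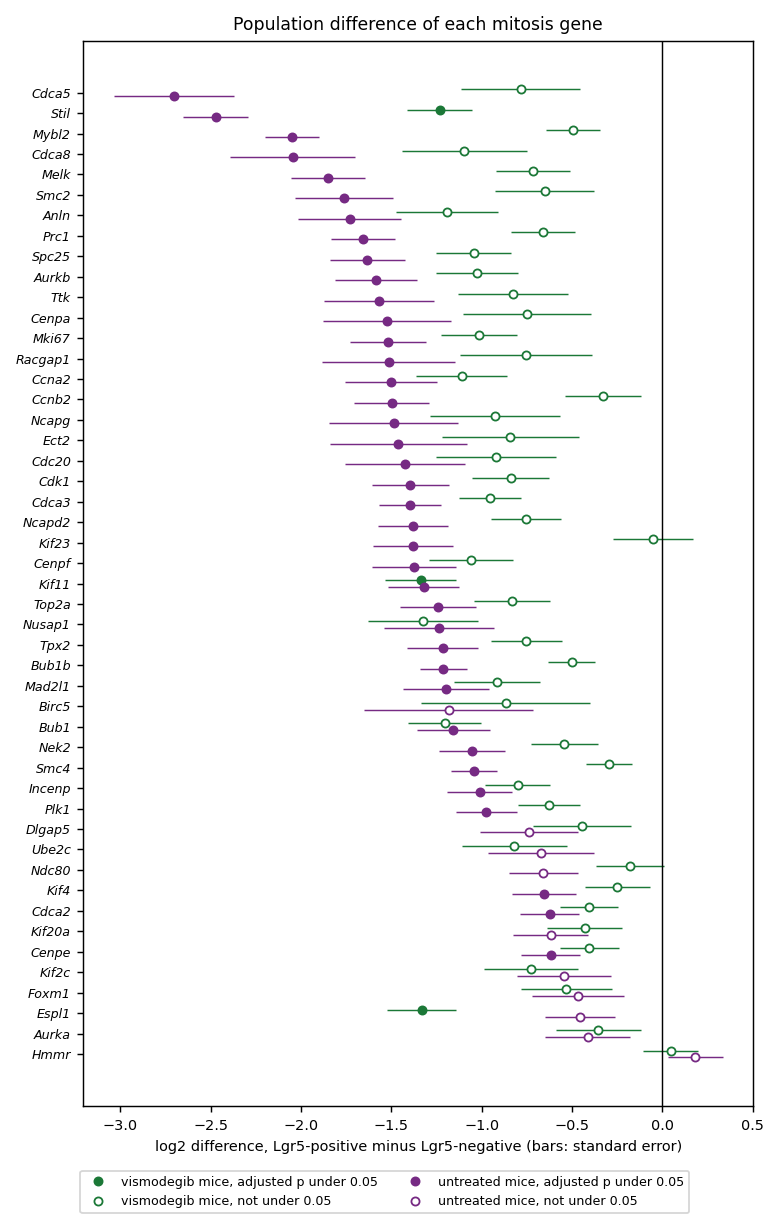
Log2 difference of each mitosis gene between Lgr5-positive and Lgr5-negative cells (x axis; bars are standard errors of the limma fit), in vismodegib-treated (green) and untreated mice (purple), ordered by the untreated difference; filled points have an adjusted p under 0.05. All points except those of Hmmr lie left of 0, and 3 green and 38 purple points are filled.

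The promoters of these genes were read from the RefSeq table for GRCm38.p6, as windows of 250 bases before to 50 bases after the start of transcription, which hold 41 promoters for 39 of the 48 genes. They were searched on both strands for the cell cycle genes homology region (CHR), TTTGAA, which the MuvB complexes are known to bind, and for CCAAT, the box bound by NF-Y. The CHR letters were found in 32 of the 41 promoters (78.0%), against 17.9% of all 32851 promoters of the table and 12.5% of those of the genes tested. CCAAT was likewise found in 32 (78.0%), against 37.4% of all promoters, and both motifs in 28 (68.3%), against 6.95%. CCAAT was also frequent in related gene lists, in 67.2% of the promoters of other mitotic genes and 67.6% of those of S phase and E2F target genes. The CHR letters were found in 47.8% of the first list and 11.8% of the second, and both motifs in 34.3% and 11.8%. Matches of the CHR fell mostly at the start of transcription: 46.3% of the genes' promoters had one in the first 50 transcribed bases, against 2.25% of all promoters. CCAAT matches were most frequent just upstream, with 53.7% of promoters in the 50 bases before the start, against 9.03% of all.

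The 5 promoters shown belong to the genes with the largest differences between untreated populations among those called lower that hold both motifs. Each is written on the strand of its gene, with CHR matches (TTTGAA, or TTCAAA on the opposite strand) and CCAAT matches (or ATTGG) in capitals. They encode borealin of the chromosomal passenger complex (Cdca8, chr4:124936868-124937167, minus strand), a condensin ATPase (Smc2, chr4:52438971-52439270, plus strand), the midzone bundler Prc1 (chr7:80294201-80294500, plus strand), a subunit of the Ndc80 complex (Spc25, chr2:69206164-69206463, minus strand) and the checkpoint kinase Mps1 (Ttk, chr9:83834439-83834738, plus strand). In Cdca8 the CHR and the last CCAAT match share a base.
Cdca8: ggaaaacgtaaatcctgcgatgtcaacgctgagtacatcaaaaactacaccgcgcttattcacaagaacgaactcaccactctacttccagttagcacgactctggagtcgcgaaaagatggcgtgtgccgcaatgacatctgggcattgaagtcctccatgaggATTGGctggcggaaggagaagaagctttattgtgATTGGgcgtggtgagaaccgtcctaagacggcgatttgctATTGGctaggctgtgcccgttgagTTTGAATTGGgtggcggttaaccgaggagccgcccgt
Smc2: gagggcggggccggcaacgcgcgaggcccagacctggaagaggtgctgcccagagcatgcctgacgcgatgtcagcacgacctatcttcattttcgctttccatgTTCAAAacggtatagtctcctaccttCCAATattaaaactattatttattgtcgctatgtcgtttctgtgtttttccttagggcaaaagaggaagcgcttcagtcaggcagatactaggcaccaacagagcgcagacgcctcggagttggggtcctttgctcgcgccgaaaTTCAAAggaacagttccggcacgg
Prc1: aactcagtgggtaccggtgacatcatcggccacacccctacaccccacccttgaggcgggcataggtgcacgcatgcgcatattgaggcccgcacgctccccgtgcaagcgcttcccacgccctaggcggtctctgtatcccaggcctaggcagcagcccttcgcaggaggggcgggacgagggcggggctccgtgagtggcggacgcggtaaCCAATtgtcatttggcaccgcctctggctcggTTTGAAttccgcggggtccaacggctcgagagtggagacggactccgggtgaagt
Spc25: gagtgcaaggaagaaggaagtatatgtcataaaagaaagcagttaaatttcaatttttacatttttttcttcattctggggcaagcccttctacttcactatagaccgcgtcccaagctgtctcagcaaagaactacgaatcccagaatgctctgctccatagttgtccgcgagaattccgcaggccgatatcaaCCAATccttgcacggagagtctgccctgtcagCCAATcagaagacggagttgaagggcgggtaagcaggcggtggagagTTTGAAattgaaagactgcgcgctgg
Ttk: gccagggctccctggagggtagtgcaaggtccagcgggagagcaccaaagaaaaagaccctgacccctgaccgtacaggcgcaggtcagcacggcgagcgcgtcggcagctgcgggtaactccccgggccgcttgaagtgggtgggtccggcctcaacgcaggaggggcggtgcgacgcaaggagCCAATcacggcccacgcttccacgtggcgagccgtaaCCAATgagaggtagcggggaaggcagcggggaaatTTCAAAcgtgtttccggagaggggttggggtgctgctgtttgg

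In 4 of these 5 windows a CHR match lies within the first 50 transcribed bases (Smc2 holds a further one upstream, at -145). In the Prc1 window shown, the only CHR match starts 5 bases before the start of transcription. Cdca8 holds 4 CCAAT matches, all on the opposite strand, and Smc2 holds 1, on the same strand. Grouped by motif, 26 genes held both, with a median difference of -1.40 between untreated populations and 22 of them called lower. The 5 genes with neither motif in the window were Mybl2, Melk, Mad2l1, Nusap1 and Birc5, with a median of -1.24 and 4 called. The 4 with CCAAT alone had a median of -1.11 (4 called), and the 4 with the CHR alone had a median of -1.20 (2 called). The classes overlapped in their values, and Cdca5 with the CHR alone and Stil with CCAAT alone had the largest differences of all. A match is a description of letters, and its absence says only that they are not in this window.

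**Figure D3:**
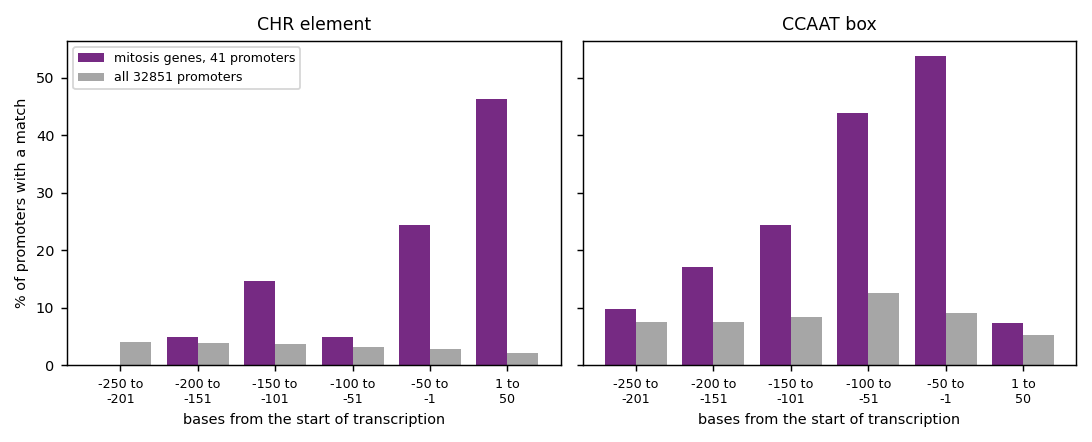
Percent of promoters (y axis) with at least 1 CHR match (left) or CCAAT match (right) in each 50-base bin from 250 bases before to 50 bases after the start of transcription (x axis), for the 41 promoters of the mitosis genes (purple) and all 32851 promoters of the table (grey). The purple CHR bar reaches 46.3% in the bin after the start and the purple CCAAT bar 53.7% in the bin before it, where the grey bars stand at 2.25% and 9.03%.

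Of the 8 cyclins and entry kinases measured, none passed the threshold between populations of vismodegib-treated mice, where their median difference was -0.67. In untreated mice 7 of the 8 were lower in Lgr5-positive cells, with a median of -1.40. Ccna2, cyclin A2, a partner of Cdk1 at mitotic entry, read 8.21 and 8.62 in vismodegib Lgr5-positive cells, 9.73 and 9.32 in vismodegib Lgr5-negative cells, 8.20 and 8.75 in untreated Lgr5-positive cells, and 9.77 and 10.17 in untreated Lgr5-negative cells, and differed by -1.50 (SE 0.252, adjusted p = 0.00837) in untreated mice. Ccnb2, cyclin B2, read 7.22 and 6.86 in vismodegib Lgr5-positive cells, 7.38 and 7.36 in vismodegib Lgr5-negative cells, 6.70 and 7.21 in untreated Lgr5-positive cells, and 8.28 and 8.62 in untreated Lgr5-negative cells. Untreated Lgr5-negative cells stood well above the other 3 groups for Ccnb2, and the population difference was -0.33 (adjusted p = 0.587) in vismodegib-treated mice, against -1.50 (SE 0.21, adjusted p = 0.00432) in untreated mice. Cdk1, the kinase that drives mitosis, read 8.03 and 8.01 in vismodegib Lgr5-positive cells, 9.18 and 8.55 in vismodegib Lgr5-negative cells, 8.27 and 8.42 in untreated Lgr5-positive cells, and 9.58 and 9.91 in untreated Lgr5-negative cells. Its groups did not overlap between populations in either treatment, and the untreated difference was -1.40 (SE 0.213, adjusted p = 0.00604).

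The entry kinase Plk1 read 6.90 and 7.06 in vismodegib Lgr5-positive cells, 7.75 and 7.47 in vismodegib Lgr5-negative cells, 7.12 and 7.53 in untreated Lgr5-positive cells, and 8.33 and 8.28 in untreated Lgr5-negative cells. Its difference of -0.98 (SE 0.169, adjusted p = 0.00933) in untreated mice was smaller than that of most members. Nek2, which splits the centrosomes, read 6.08 and 6.08 in vismodegib Lgr5-positive cells, 6.84 and 6.40 in vismodegib Lgr5-negative cells, 6.17 and 6.19 in untreated Lgr5-positive cells, and 7.04 and 7.43 in untreated Lgr5-negative cells and differed by -1.06 (SE 0.183, adjusted p = 0.00944) in untreated mice. Its 3 probe sets of unique type gave 0.10, -0.45 and, below the dim level, 0.03. Melk, a kinase of dividing progenitors, read 6.80 and 6.73 in vismodegib Lgr5-positive cells, 7.46 and 7.52 in vismodegib Lgr5-negative cells, 6.73 and 6.59 in untreated Lgr5-positive cells, and 8.17 and 8.84 in untreated Lgr5-negative cells, so that only untreated Lgr5-negative cells were above 8, with a population difference of -1.85 (SE 0.205, adjusted p = 0.00195) in untreated mice. Cdca3, which promotes the breakdown of the inhibitor Wee1, read 6.68 and 6.66 in vismodegib Lgr5-positive cells, 7.78 and 7.47 in vismodegib Lgr5-negative cells, 7.32 and 7.60 in untreated Lgr5-positive cells, and 8.69 and 9.02 in untreated Lgr5-negative cells. In Cdca3 both treated groups lay below their untreated counterparts and both Lgr5-positive groups below their Lgr5-negative ones, without overlap, and the untreated population difference was -1.40 (SE 0.17, adjusted p = 0.00267). Aurka, the Aurora kinase of the centrosome, did not pass in any comparison: its difference was -0.41 in untreated mice (adjusted p = 0.267), with array values between 7.36 and 8.43.

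Of the 2 transcription factors, Mybl2 was called between untreated populations and Foxm1 was not. Mybl2, which encodes B-Myb, read 6.32 and 6.28 in vismodegib Lgr5-positive cells, 6.62 and 6.96 in vismodegib Lgr5-negative cells, 5.78 and 6.03 in untreated Lgr5-positive cells, and 7.92 and 7.99 in untreated Lgr5-negative cells. Both untreated Lgr5-negative arrays were far above the other 6. The population difference was -0.49 (adjusted p = 0.257) in vismodegib-treated mice, against -2.05 (SE 0.151, adjusted p = 0.000561), a 4.14-fold lower signal, in untreated mice. Another probe set of Mybl2, also above the dim level, gave -0.17 in vismodegib-treated and -1.09 in untreated mice. Foxm1, which encodes the factor that acts with B-Myb before mitosis, read 6.998 and 7.20 in vismodegib Lgr5-positive cells, 8.01 and 7.25 in vismodegib Lgr5-negative cells, 7.40 and 7.44 in untreated Lgr5-positive cells, and 7.68 and 8.10 in untreated Lgr5-negative cells. Its population differences of -0.53 in vismodegib-treated and -0.47 in untreated mice did not pass (adjusted p = 0.457 and 0.25). The probe sets of Foxm1 disagreed: another of unique type, also above the dim level, gave -1.22 in vismodegib-treated and -1.35 in untreated mice.

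Of the 7 genes of chromosome structure, none passed between populations of vismodegib-treated mice, where their median was -0.76, and all 7 were lower in untreated Lgr5-positive cells, with a median of -1.38. The condensin ATPase Smc4 read 10.01 and 9.95 in vismodegib Lgr5-positive cells, 10.29 and 10.25 in vismodegib Lgr5-negative cells, 9.31 and 9.45 in untreated Lgr5-positive cells, and 10.30 and 10.54 in untreated Lgr5-negative cells. Untreated Lgr5-positive cells were its lowest group, and the untreated difference between populations was -1.04 (SE 0.127, adjusted p = 0.00267). Its partner Smc2 read 6.81 and 6.73 in vismodegib Lgr5-positive cells, 7.82 and 7.03 in vismodegib Lgr5-negative cells, 6.32 and 6.32 in untreated Lgr5-positive cells, and 7.80 and 8.36 in untreated Lgr5-negative cells. For Smc2, too, both untreated Lgr5-positive arrays were the lowest of the 8, and the population difference was -1.76 (SE 0.272, adjusted p = 0.00637). Other probe sets of Smc2, all above the dim level, disagreed, at -2.67, -0.12 and -1.44 in untreated mice. In the same order, vismodegib minus untreated in Lgr5-positive cells was 1.2, 0.00059 and 0.04, against 0.45 for the one used. The promoter of Smc2 is among those printed above.

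The condensin subunits Ncapg and Ncapd2 were both called lower in untreated mice. Ncapg read 7.45 and 7.13 in vismodegib Lgr5-positive cells, 8.80 and 7.64 in vismodegib Lgr5-negative cells, 7.14 and 7.66 in untreated Lgr5-positive cells, and 8.78 and 9.001 in untreated Lgr5-negative cells, and Ncapd2 read 7.33 and 7.26 in vismodegib Lgr5-positive cells, 8.33 and 7.78 in vismodegib Lgr5-negative cells, 7.22 and 7.496 in untreated Lgr5-positive cells, and 8.68 and 8.80 in untreated Lgr5-negative cells. The untreated difference was -1.49 (SE 0.358, adjusted p = 0.0302) for Ncapg and -1.38 (SE 0.194, adjusted p = 0.00438) for Ncapd2, whose arrays scattered less. Top2a, the topoisomerase that untangles sister chromatids, read 7.24 and 7.19 in vismodegib Lgr5-positive cells, 8.12 and 7.97 in vismodegib Lgr5-negative cells, 6.68 and 7.36 in untreated Lgr5-positive cells, and 8.18 and 8.35 in untreated Lgr5-negative cells, with an untreated difference of -1.24 (SE 0.21, adjusted p = 0.00867). Other probe sets of Top2a above the dim level gave -0.04 and 0.05 in untreated mice, the second with a mean of 4.88, near that level. Mki67, which keeps mitotic chromosomes apart and is the usual marker of dividing cells, read 8.21 and 8.25 in vismodegib Lgr5-positive cells, 9.39 and 9.10 in vismodegib Lgr5-negative cells, 8.04 and 8.64 in untreated Lgr5-positive cells, and 9.75 and 9.97 in untreated Lgr5-negative cells. All 4 Lgr5-negative arrays of Mki67 exceeded all 4 Lgr5-positive ones, with a difference of -1.02 (adjusted p = 0.116) in vismodegib-treated mice and -1.52 (SE 0.21, adjusted p = 0.00406) in untreated mice. Cdca2, which brings a phosphatase to chromosomes, read 7.07 and 6.77 in vismodegib Lgr5-positive cells, 7.51 and 7.16 in vismodegib Lgr5-negative cells, 7.09 and 7.23 in untreated Lgr5-positive cells, and 7.77 and 7.80 in untreated Lgr5-negative cells, and differed by -0.62 (SE 0.161, adjusted p = 0.0374) in untreated mice.

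Of the 5 centromere and kinetochore genes, none passed between populations of vismodegib-treated mice, with a median of -0.75, and 4 were lower in untreated Lgr5-positive cells, with a median of -1.37. Cenpa, the histone H3 variant of the centromere, read 7.59 and 7.81 in vismodegib Lgr5-positive cells, 8.51 and 8.39 in vismodegib Lgr5-negative cells, 7.47 and 8.60 in untreated Lgr5-positive cells, and 9.25 and 9.87 in untreated Lgr5-negative cells. The Lgr5-positive array of untreated mouse 2 was above both vismodegib Lgr5-negative arrays, and the untreated difference was -1.52 (SE 0.355, adjusted p = 0.0269). Another probe set of Cenpa, also above the dim level, gave -0.24 in untreated and -0.82 in vismodegib-treated mice. Cenpe, a kinesin of the kinetochore, read 6.35 and 6.37 in vismodegib Lgr5-positive cells, 6.91 and 6.61 in vismodegib Lgr5-negative cells, 6.22 and 6.40 in untreated Lgr5-positive cells, and 6.75 and 7.11 in untreated Lgr5-negative cells, a narrow range with an untreated difference of -0.62 (SE 0.163, adjusted p = 0.0402). Another probe set of Cenpe, also above the dim level, gave larger differences, -1.87 in untreated and -1.28 in vismodegib-treated mice. Cenpf, a large kinetochore protein, read 7.37 and 7.29 in vismodegib Lgr5-positive cells, 8.34 and 8.44 in vismodegib Lgr5-negative cells, 6.80 and 7.30 in untreated Lgr5-positive cells, and 8.11 and 8.73 in untreated Lgr5-negative cells. Its vismodegib Lgr5-negative arrays lay between the untreated Lgr5-negative ones, and its population difference under drug was -1.06 (adjusted p = 0.134, and 0.0359 with the mouse as a block). Other probe sets of Cenpf above the dim level gave -0.58 and -0.42 under drug. In untreated mice they gave -0.55 and 0.30, against -1.37 for the one used. The second had a mean of 4.90, near the dim level. Spc25, of the Ndc80 complex that grips microtubules, read 5.47 and 5.24 in vismodegib Lgr5-positive cells, 6.67 and 6.13 in vismodegib Lgr5-negative cells, 5.52 and 5.33 in untreated Lgr5-positive cells, and 6.90 and 7.21 in untreated Lgr5-negative cells and differed by -1.63 (SE 0.206, adjusted p = 0.00295) in untreated mice. Its partner Ndc80 did not pass, at -0.66 (adjusted p = 0.052), with array values between 6.26 and 7.16.

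The chromosomal passenger complex corrects faulty attachments and guides cytokinesis. Of its 4 genes, none passed between populations under vismodegib, with a median of -0.95, and 3 were lower in untreated Lgr5-positive cells, with a median of -1.38. The kinase subunit Aurkb read 7.18 and 7.67 in vismodegib Lgr5-positive cells, 8.68 and 8.24 in vismodegib Lgr5-negative cells, 7.69 and 7.91 in untreated Lgr5-positive cells, and 9.20 and 9.57 in untreated Lgr5-negative cells and differed by -1.58 (SE 0.227, adjusted p = 0.00476) in untreated mice. Cdca8, borealin, read 7.42 and 7.58 in vismodegib Lgr5-positive cells, 8.80 and 8.39 in vismodegib Lgr5-negative cells, 7.15 and 8.22 in untreated Lgr5-positive cells, and 9.45 and 10.01 in untreated Lgr5-negative cells. Its difference of -2.05 (SE 0.347, adjusted p = 0.00871), a 4.13-fold lower signal, was the largest of the complex, although the 2 untreated Lgr5-positive arrays lay over 1 unit apart. The scaffold Incenp read 7.43 and 7.19 in vismodegib Lgr5-positive cells, 8.21 and 8.01 in vismodegib Lgr5-negative cells, 7.37 and 7.81 in untreated Lgr5-positive cells, and 8.501 and 8.70 in untreated Lgr5-negative cells and differed by -1.01 (SE 0.18, adjusted p = 0.0104). Birc5, survivin, read 7.21 and 7.30 in vismodegib Lgr5-positive cells, 8.72 and 7.53 in vismodegib Lgr5-negative cells, 7.45 and 8.68 in untreated Lgr5-positive cells, and 9.03 and 9.46 in untreated Lgr5-negative cells. The Lgr5-positive array of untreated mouse 2 was more than 1 unit above that of mouse 1, and the difference of -1.18 had a standard error of 0.467 and an adjusted p of 0.128.

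Of the 8 checkpoint and anaphase genes, 1 was lower in Lgr5-positive cells of vismodegib-treated mice, with a median of -0.87. In untreated mice 6 were lower, with a median of -1.21. The checkpoint kinase Bub1 read 4.68 and 4.86 in vismodegib Lgr5-positive cells, 6.26 and 5.68 in vismodegib Lgr5-negative cells, 5.10 and 5.03 in untreated Lgr5-positive cells, and 6.07 and 6.36 in untreated Lgr5-negative cells, with 1 array below the dim level. Bub1b, BubR1, read 6.94 and 6.73 in vismodegib Lgr5-positive cells, 7.33 and 7.35 in vismodegib Lgr5-negative cells, 6.73 and 6.503 in untreated Lgr5-positive cells, and 7.80 and 7.86 in untreated Lgr5-negative cells, and its untreated difference of -1.21 (SE 0.13, adjusted p = 0.00178) had one of the lowest standard errors. For Bub1 and Bub1b every Lgr5-negative array exceeded every Lgr5-positive array. The checkpoint kinase Ttk, whose promoter is printed above, read 5.61 and 5.77 in vismodegib Lgr5-positive cells, 6.68 and 6.36 in vismodegib Lgr5-negative cells, 5.39 and 6.27 in untreated Lgr5-positive cells, and 7.10 and 7.69 in untreated Lgr5-negative cells. Mad2l1, the checkpoint protein Mad2, read 7.32 and 7.04 in vismodegib Lgr5-positive cells, 8.23 and 7.96 in vismodegib Lgr5-negative cells, 6.99 and 7.67 in untreated Lgr5-positive cells, and 8.39 and 8.66 in untreated Lgr5-negative cells. The same held for Ttk and Mad2l1. The untreated differences of Bub1, Ttk and Mad2l1 were -1.16, -1.57 and -1.20, with adjusted p-values of 0.00954, 0.0144 and 0.0154.

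Cdc20, the activator of the anaphase-promoting complex that the checkpoint restrains, read 8.29 and 8.13 in vismodegib Lgr5-positive cells, 9.11 and 9.16 in vismodegib Lgr5-negative cells, 8.002 and 9.10 in untreated Lgr5-positive cells, and 9.71 and 10.23 in untreated Lgr5-negative cells and differed by -1.43 (SE 0.331, adjusted p = 0.0268) in untreated mice. Ube2c, the ubiquitin-conjugating enzyme of that complex, did not pass, at -0.67 (adjusted p = 0.162), with array values between 8.19 and 9.52. Cdca5, sororin, which protects cohesion until anaphase, read 7.04 and 6.77 in vismodegib Lgr5-positive cells, 8.25 and 7.13 in vismodegib Lgr5-negative cells, 6.31 and 5.92 in untreated Lgr5-positive cells, and 8.80 and 8.85 in untreated Lgr5-negative cells. The untreated Lgr5-negative arrays were the highest and the untreated Lgr5-positive arrays the lowest of the 8. The difference of -2.70 (SE 0.331, adjusted p = 0.00269), a 6.52-fold lower signal, was the largest of the 48 genes with the probe sets used. Another probe set of Cdca5, also above the dim level, gave -1.91 in untreated and -0.97 in vismodegib-treated mice. Espl1, separase, which cleaves cohesin, read 6.07 and 6.23 in vismodegib Lgr5-positive cells, 7.75 and 7.21 in vismodegib Lgr5-negative cells, 6.83 and 6.96 in untreated Lgr5-positive cells, and 7.22 and 7.47 in untreated Lgr5-negative cells. The difference between populations was -1.33 (SE 0.192, adjusted p = 0.0475) in vismodegib-treated mice, against -0.46 (adjusted p = 0.15) in untreated mice. Its vismodegib Lgr5-positive arrays were the lowest of the 8, and a vismodegib Lgr5-negative array was the highest.

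Of the 8 spindle motor and microtubule genes, 2 were lower in Lgr5-positive cells of vismodegib-treated mice, with a median of -0.74, and 5 in untreated mice, with a median of -0.98. Kif11, the kinesin Eg5 that pushes the poles apart, read 6.79 and 7.06 in vismodegib Lgr5-positive cells, 8.47 and 8.05 in vismodegib Lgr5-negative cells, 6.91 and 7.29 in untreated Lgr5-positive cells, and 8.33 and 8.51 in untreated Lgr5-negative cells. Its population difference was -1.34 (SE 0.197, adjusted p = 0.0475) in vismodegib-treated mice and -1.32 (SE 0.197, adjusted p = 0.00556) in untreated mice. Another probe set of Kif11, also above the dim level, gave -0.79 in vismodegib-treated and -1.8 in untreated mice. Stil, needed to build new centrioles, read 5.61 and 5.75 in vismodegib Lgr5-positive cells, 7.14 and 6.68 in vismodegib Lgr5-negative cells, 5.99 and 5.67 in untreated Lgr5-positive cells, and 8.30 and 8.31 in untreated Lgr5-negative cells. Its arrays stood at 3 levels, with all 4 Lgr5-positive arrays between 5.61 and 5.99, the vismodegib Lgr5-negative arrays above them and the untreated Lgr5-negative arrays highest. The difference between populations was -1.23 (SE 0.179, adjusted p = 0.0475) in vismodegib-treated mice and -2.47 (SE 0.179, adjusted p = 0.000547) in untreated mice.

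Tpx2 read 6.78 and 6.74 in vismodegib Lgr5-positive cells, 7.76 and 7.27 in vismodegib Lgr5-negative cells, 6.76 and 7.02 in untreated Lgr5-positive cells, and 7.93 and 8.27 in untreated Lgr5-negative cells, which traced the order of the group means of all 48 genes, with an untreated difference of -1.22 (SE 0.197, adjusted p = 0.00745). Nusap1, which bundles spindle microtubules, read 5.88 and 5.87 in vismodegib Lgr5-positive cells, 7.71 and 6.69 in vismodegib Lgr5-negative cells, 6.29 and 6.37 in untreated Lgr5-positive cells, and 7.34 and 7.79 in untreated Lgr5-negative cells and differed by -1.24 (SE 0.305, adjusted p = 0.0328) in untreated mice. The chromokinesin Kif4 read 5.498 and 5.57 in vismodegib Lgr5-positive cells, 5.75 and 5.82 in vismodegib Lgr5-negative cells, 5.59 and 6.04 in untreated Lgr5-positive cells, and 6.31 and 6.63 in untreated Lgr5-negative cells. Its difference of -0.66 (SE 0.178, adjusted p = 0.0433) was the call with the highest adjusted p among the 38. Kif2c, a kinesin that takes microtubules apart, and Dlgap5, which stabilises kinetochore fibres, did not pass, at -0.54 and -0.74 in untreated mice (adjusted p = 0.199 and 0.107). Array values lay between 5.83 and 7.18 for Kif2c and between 6.01 and 7.23 for Dlgap5. Hmmr read 6.25 and 6.26 in vismodegib Lgr5-positive cells, 6.03 and 6.38 in vismodegib Lgr5-negative cells, 6.31 and 6.52 in untreated Lgr5-positive cells, and 6.29 and 6.18 in untreated Lgr5-negative cells. It was the only gene with higher fitted signals in Lgr5-positive cells, by 0.04 in vismodegib-treated and 0.18 in untreated mice (adjusted p = 0.934 and 0.447). Its 5 probe sets disagreed. The others, all above the dim level, gave -0.22, -1.35, -0.24 and -0.41 in untreated mice. In the same order they gave -0.59, -0.57, 0.12 and -0.21 in vismodegib-treated mice. The one used may cross-hybridise to similar sequences, by the suffix of its name.

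Of the 6 genes of the midzone and cytokinesis, none passed between populations of vismodegib-treated mice, with a median of -0.71, and 5 were lower in untreated Lgr5-positive cells, with a median of -1.49. Prc1, which bundles the antiparallel microtubules of the midzone, read 8.14 and 8.28 in vismodegib Lgr5-positive cells, 9.12 and 8.62 in vismodegib Lgr5-negative cells, 7.57 and 7.68 in untreated Lgr5-positive cells, and 9.18 and 9.39 in untreated Lgr5-negative cells and differed by -1.66 (SE 0.177, adjusted p = 0.00178) in untreated mice. Racgap1 and Kif23 form centralspindlin, which brings Ect2, the activator of RhoA, to the cleavage plane. Racgap1 read 7.21 and 7.31 in vismodegib Lgr5-positive cells, 8.39 and 7.646 in vismodegib Lgr5-negative cells, 6.87 and 7.82 in untreated Lgr5-positive cells, and 8.54 and 9.17 in untreated Lgr5-negative cells, and Kif23 read 5.11 and 5.01 in vismodegib Lgr5-positive cells, 5.24 and 4.99 in vismodegib Lgr5-negative cells, 4.91 and 4.75 in untreated Lgr5-positive cells, and 5.86 and 6.55 in untreated Lgr5-negative cells. The untreated Lgr5-negative arrays of Kif23 were above the other 6, which lay between 4.75 and 5.24, near the dim level. Racgap1 differed by -1.52 (SE 0.366, adjusted p = 0.0306) between untreated populations. For Kif23 the population difference was -0.05 (adjusted p = 0.949) in vismodegib-treated mice and -1.38 (SE 0.221, adjusted p = 0.00728) in untreated mice.

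Ect2 read 4.31 and 4.42 in vismodegib Lgr5-positive cells, 5.80 and 4.61 in vismodegib Lgr5-negative cells, 4.19 and 4.30 in untreated Lgr5-positive cells, and 5.33 and 6.08 in untreated Lgr5-negative cells. In 5 of its 8 arrays it lay below the dim level, which limits how well its difference of -1.46 (SE 0.379, adjusted p = 0.0383) is measured. Anln, anillin, which anchors the contractile ring, read 5.90 and 5.92 in vismodegib Lgr5-positive cells, 7.39 and 6.81 in vismodegib Lgr5-negative cells, 5.66 and 6.27 in untreated Lgr5-positive cells, and 7.39 and 7.99 in untreated Lgr5-negative cells and differed by -1.73 (SE 0.284, adjusted p = 0.00783) in untreated mice, with all 4 Lgr5-negative arrays above all 4 Lgr5-positive ones. Kif20a, a kinesin of the midzone, did not pass, at -0.62 (adjusted p = 0.0821), with array values between 7.20 and 8.57.

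**Figure D4:**
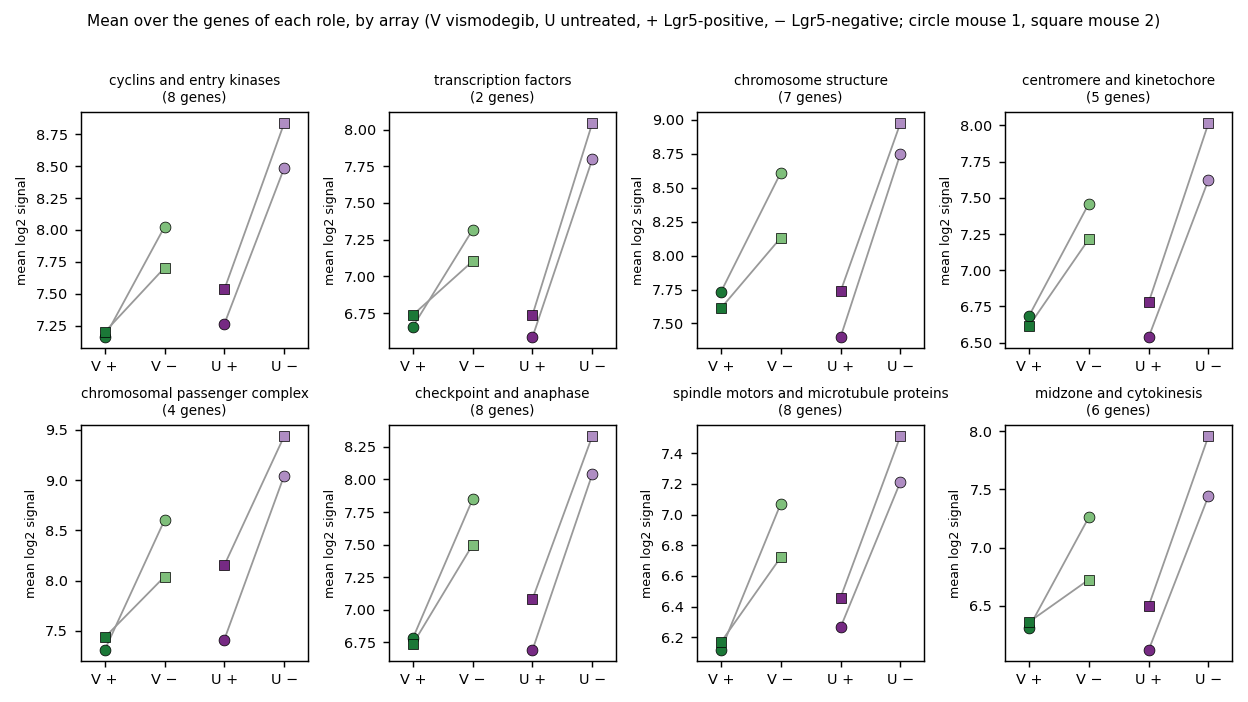
Mean log2 signal over the genes of each role (y axis, a separate range in each panel) in the 8 arrays, by group on the x axis (V vismodegib, U untreated, + Lgr5-positive, − Lgr5-negative); circles are mouse 1 and squares mouse 2 of each treatment, and lines join the populations of a mouse. In each of the 8 panels every line runs up from Lgr5-positive to Lgr5-negative cells, and both untreated Lgr5-negative arrays are the highest.

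Vismodegib was set against no treatment within each population. In Lgr5-negative cells, 47 of the 48 genes had a lower fitted signal with vismodegib (49.1% of all genes tested did), with a median difference of -0.60, a 1.52-fold lower signal. Without the Lgr5-negative array of vismodegib mouse 2 that median was -0.36, and without that of mouse 1 it was -0.82. Of the 48, 6 passed the threshold, all of them lower, against 2.06% of all genes called lower and 1.26% higher, and 27 had an unadjusted p under 0.05. The groups did not overlap, with vismodegib lower, for 34 genes, against 24.9% of all genes. Stil fell by 1.39 on the log2 scale (SE 0.179, adjusted p = 0.0102), Cdca3 by 1.23 (SE 0.17, adjusted p = 0.0137) and Mybl2 by 1.16 (SE 0.151, adjusted p = 0.0106). Ccnb2, Melk and Kif23 were nearer the threshold, at -1.08 (SE 0.21, adjusted p = 0.0414), -1.02 (SE 0.205, adjusted p = 0.0452) and -1.10 (SE 0.221, adjusted p = 0.0467).

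The number called moved with single arrays. It was 0 without the Lgr5-negative array of untreated mouse 2, 2 without the Lgr5-negative array of vismodegib mouse 2, and 3 without the Lgr5-negative array of untreated mouse 1 or without either vismodegib Lgr5-positive array. With no filter on dim genes it was 3. Without the Lgr5-negative array of vismodegib mouse 1 it was 6, but Ccnb2, Melk and Kif23 were replaced by others, and Melk and Kif23 were also lost without either untreated Lgr5-positive array, where 8 genes were called. Cdca8, Cdca5, Birc5 and Cenpa had differences as large, at -1.14, -1.13, -1.13 and -1.11, with wider errors and adjusted p-values of 0.134, 0.12, 0.252 and 0.149. Another probe set of Cenpa, also above the dim level, went the other way, at 0.53. Those of Cdca8 and Cdca5 gave -0.985 and -0.755. Near 0 were Cenpf at -0.04, Hmmr at -0.03 and Espl1 at 0.13. The macrophage markers were higher with vismodegib in these cells, 3 of 14 at the threshold and 0 lower, and their part in the lower mitosis signals was not tested.

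In Lgr5-positive cells the mitosis genes were spread on both sides of 0, with a median difference of -0.13 between vismodegib and no treatment and 33 of 48 below 0 (50.9% of all genes tested were). The sign of that median turned with 1 array: it was 0.06 without the Lgr5-positive array of untreated mouse 2 and -0.34 without that of untreated mouse 1. The threshold was passed by 1 higher gene, Smc4, at 0.60 (SE 0.127, adjusted p = 0.0247), against 6.37% of all genes called higher. The other probe sets of Smc4 gave 0.257 and 0.261. Its call was lost with the mean of the probe sets and with only the 4 arrays compared. The threshold was passed by 2 lower genes, against 4.51% of all genes, namely Cdca3 at -0.79 (SE 0.17, adjusted p = 0.0269) and Espl1 at -0.75 (SE 0.192, adjusted p = 0.0493). The share of the mitosis genes called was thus not above that of all genes. Groups did not overlap for 9 genes with vismodegib higher and 15 with vismodegib lower, against 27.9% and 26.9% of all genes. All 3 calls were lost without either vismodegib Lgr5-positive array or without the Lgr5-positive array of untreated mouse 2, and 5 genes were called without either vismodegib Lgr5-negative array. Without the Lgr5-positive array of untreated mouse 1, Smc4 and Espl1 were lost and 3 lower genes were called, of which Cdca3 was 1. Espl1 was also lost without either untreated Lgr5-negative array, and its adjusted p was 0.0501 with the mouse as a random block.

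Positive differences with vismodegib in Lgr5-positive cells were measured for Cdca5, at 0.79 (adjusted p = 0.193), Prc1, at 0.58 (adjusted p = 0.0826) and Mybl2, at 0.39 (adjusted p = 0.156). Negative ones were measured for Birc5, at -0.81 (adjusted p = 0.343) and Kif20a, at -0.63 (adjusted p = 0.103). The threshold was passed by none of these 5. Other probe sets above the dim level gave 0.19 for Cdca5, 0.38 for Prc1 and 0.08 for Mybl2. Of the 14 macrophage markers, 12 were higher with vismodegib in these cells and 0 lower, and what they contribute to these signals was not tested.

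With the arrays of each mouse averaged first, vismodegib mice had a median difference of -0.36 from untreated mice, with 45 of the 48 genes below 0 (50% of all genes were). The median was -0.23 without vismodegib mouse 2 and -0.21 without untreated mouse 2. Lower at the threshold were 4 genes, against 3.21% of all genes, and none was higher (3.55% of all genes were). They were Cdca3 at -1.01 (SE 0.136, adjusted p = 0.0174), Stil at -0.77 (SE 0.11, adjusted p = 0.0206), Aurkb at -0.65 (SE 0.125, adjusted p = 0.0458) and Plk1 at -0.52 (SE 0.104, adjusted p = 0.0499). Without vismodegib mouse 2 or untreated mouse 2 none was called, and without vismodegib mouse 1 there were 2. Without untreated mouse 1 there were 5, of which Cdca3 alone was among the 4.

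**Figure D5:**
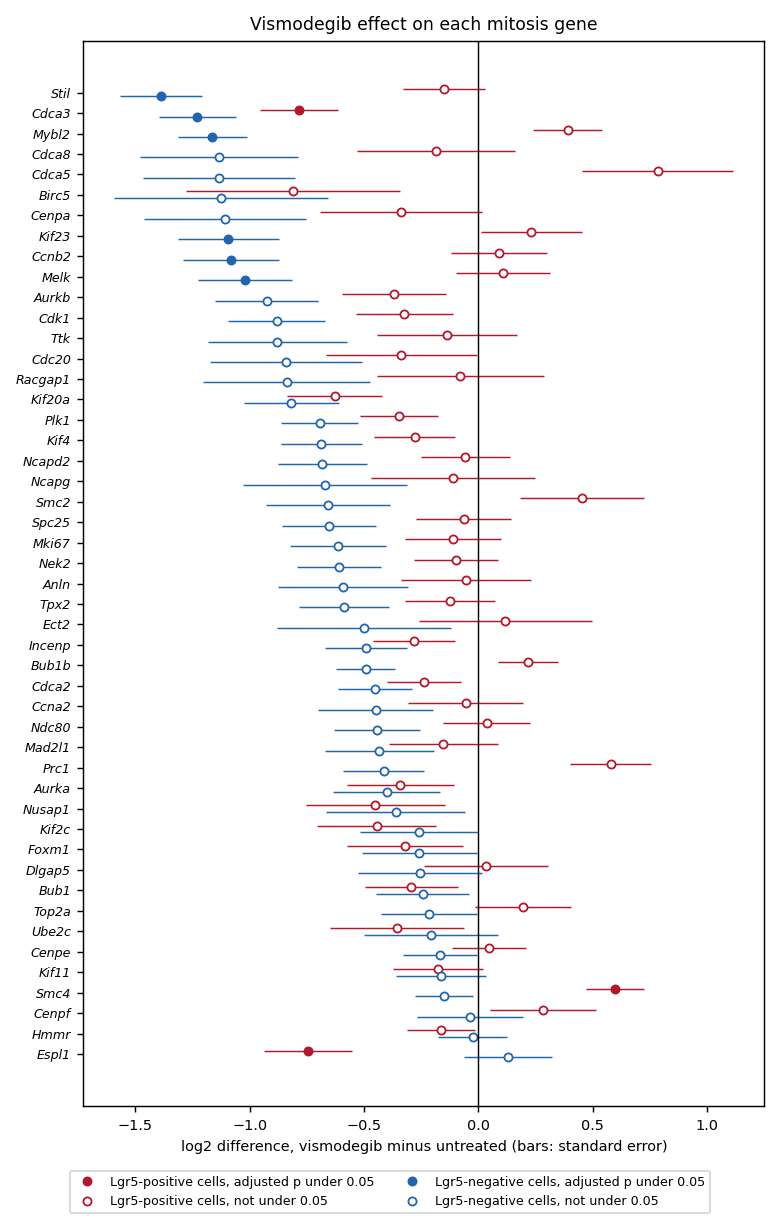
Log2 difference of each mitosis gene between vismodegib-treated and untreated mice (x axis; bars are standard errors of the limma fit), in Lgr5-positive (red) and Lgr5-negative cells (blue), ordered by the Lgr5-negative difference; filled points have an adjusted p under 0.05. The blue points lie left of 0 except that of Espl1, with 6 filled, and the red points scatter about 0, with 3 filled.

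The vismodegib effect in Lgr5-positive cells was set against that in Lgr5-negative cells by its own contrast, which is equally the change of the population difference with the drug. The median of the 48 genes was 0.49, with 8 below 0 (50.2% of all genes tested were), so that for most genes the drug difference was less negative in Lgr5-positive cells. That median was 0.26 without the Lgr5-positive array of untreated mouse 1, 0.29 without the Lgr5-negative array of vismodegib mouse 2 and 0.31 without that of untreated mouse 2. At the threshold, 1 gene was called, against 0.993% of all genes higher and 0.41% lower. It was Mybl2, at 1.56 (SE 0.214, adjusted p = 0.0232). The larger difference of Cdca5, 1.92, had a standard error of 0.469 and an adjusted p of 0.0972. Another probe set of Mybl2 gave vismodegib effects of 0.08 in Lgr5-positive and -0.84 in Lgr5-negative cells. For another of Cdca5 they were 0.19 and -0.755. Stil, at 1.24, and Kif23, at 1.33, had adjusted p-values of 0.0685 and 0.0897. Espl1 was the lowest, at -0.88 (adjusted p = 0.163). With the mouse as a block, 3 genes were called, all higher, against 1.44% of all genes higher and 0.646% lower: Mybl2, Cdca5 and Ccnb2. The Mybl2 call was lost without either vismodegib Lgr5-positive array or without either untreated Lgr5-negative array (without that of mouse 1 another gene was called), and 3 genes were called without the Lgr5-negative array of vismodegib mouse 1. For the genes not called by this contrast, a call in untreated and none in vismodegib-treated mice does not show that the population difference changed.

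Other lists of cell cycle genes were counted by the same test, and of all genes tested 10.9% were called lower and 6.21% higher in untreated Lgr5-positive cells. Of 64 further mitotic genes, none passed between populations of vismodegib-treated mice (23 under an unadjusted p of 0.05, median -0.30), and 32 were lower and 0 higher in untreated Lgr5-positive cells, with a median of -0.55. Pbk, a mitotic kinase, differed most in untreated mice, at -2.65 (SE 0.3, adjusted p = 0.00209), followed by Arhgap11a at -2.13 (SE 0.233, adjusted p = 0.00187). Of 37 S phase and E2F target genes, none passed under vismodegib (16 under an unadjusted p of 0.05, median -0.40), and 22 were lower and 0 higher in untreated Lgr5-positive cells, with a median of -0.89. Prim1, the primase subunit, differed by -1.93 (SE 0.375, adjusted p = 0.014) and Gmnn, geminin, by -1.90 (SE 0.34, adjusted p = 0.0105). The median of the 48 mitosis genes, -1.35, was lower than that of either list.

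A list of 12 genes was drawn up for the DREAM and MuvB complexes, which carry the switch of these promoters. Not all 12 are subunits, as Rb1 and Dyrk1a are among them. The list held 2 lower genes in untreated Lgr5-positive cells, Rbl1 at -0.95 (SE 0.251, adjusted p = 0.0402) and Tfdp1 at -0.85 (SE 0.123, adjusted p = 0.005), with a median of -0.23. That count is near the share of all genes called lower, 10.9%. Of 14 inhibitors of cyclin-dependent kinases and genes of quiescence, 5 were higher and 0 lower there: Cdkn2b at 1.75 (SE 0.26, adjusted p = 0.00556), Txnip at 1.45 (SE 0.248, adjusted p = 0.00893), Foxc1 at 1.38 (SE 0.144, adjusted p = 0.00167), Btg2 at 0.98 (SE 0.138, adjusted p = 0.00438) and Cdkn1c at 0.62 (SE 0.118, adjusted p = 0.0132). The median of this list was 0.12, and neither list held a call between populations of vismodegib-treated mice, where 3 of the 12 and 2 of the 14 had an unadjusted p under 0.05. With vismodegib, 4 of the 14 were lower in Lgr5-positive cells (4.51% of all genes were), with Cdkn2b at -2.75 (SE 0.26, adjusted p = 0.000996) the lowest, and 1 in Lgr5-negative cells (2.06% of all genes were), Gas1 at -1.25 (SE 0.23, adjusted p = 0.0362).

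Other probe sets of the same genes were read as well. Of 42 other probe sets of the members, 37, from 25 genes, were above the dim level. In vismodegib-treated mice 30 of these 37 were lower in Lgr5-positive cells, with a median of -0.58, and in untreated mice 33 were, with a median of -1. Lower signals with vismodegib were read by 31 of them in Lgr5-negative cells, with a median of -0.42, and by 23 in Lgr5-positive cells, with a median of -0.06. Some differed little between untreated populations, such as single ones of Incenp at 0.16, Bub1b at -0.06 and Ttk at -0.06. Aurkb, Cdca8, Prc1, Nek2 and Hmmr were read by probe sets whose names mark possible cross-hybridisation, so their values are less sure. Array values below the dim level occurred in 3 members, Ect2, Bub1 and Kif23.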

How the data were processed

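Amplified RNA of sorted epidermal cells was read on Affymetrix mouse arrays whose probes are all perfect matches, 1 array for each of 8 samples. Per array and probe set, the authors deposited a log2 signal from RMA (named in the submitters' processing notes, version not stated), a method that corrects background, normalises by quantiles and summarises each probe set. They were used as deposited, in all 8 columns. Of 45141 probe sets, 28898 carried 1 symbol, 551 several and 15588 none, and 104 were controls. A gene was tested if it exceeded 4.85, the lower quartile of all values, in 2 or more arrays.

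The test was limma 3.58.1 (R 4.3.3), two-sided, with all 8 arrays in a model of 4 group means (4 residual degrees of freedom, 3.53 prior). The drug effect over both populations was fitted to the mean of each mouse. Benjamini-Hochberg adjustment ran over all 14403 genes, and an adjusted p under 0.05 was called. The script was also run on simulated data drawn without pairing by mouse, and the outcome is not given here. Per the labels, both populations of a mouse come from the same animal. The deviations of same-mouse arrays from their group means correlated at 0.211 in vismodegib and 0.142 in untreated mice, so the mouse was a block in alternative fits. Array values are given for genes past the threshold in any contrast, for the member with the highest mean of each role and for the extreme differences; the others are given by range. The members and all lists were chosen with earlier results of these data known. Alternatives changed the filter, the probe set, the normalization (cyclic loess), the prior, array weights, the arrays fitted, the block, the fold and the arrays left out. Promoters came from the RefSeq table for GRCm38.p6 and were searched in Python 3.11.15.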

Additional observations from a re-analysis of the deposited data

Results flagged for a closer look

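Mybl2, which encodes B-Myb, drew attention because its vismodegib effect differed between the populations by a test of the difference itself. Its log2 signal was 6.32 and 6.28 in vismodegib Lgr5-positive cells, against 5.78 and 6.03 in untreated Lgr5-positive cells. In Lgr5-negative cells it was 6.62 and 6.96 with vismodegib, against 7.92 and 7.99 without. Another probe set of Mybl2, also above the dim level, gave vismodegib effects of 0.08 in Lgr5-positive and -0.84 in Lgr5-negative cells. No alternative fitted that probe set alone. With the probe set used, the effect was 0.39 in Lgr5-positive cells (adjusted p = 0.156 in limma) and -1.16 in Lgr5-negative cells (adjusted p = 0.0106). The difference of these effects was 1.56 (SE 0.214, adjusted p = 0.0232), and it passed the threshold in 14 of 18 alternatives, with values between 1.24 and 1.73 and adjusted p-values between 0.0172 and 0.136.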

How the results depend on the processing

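Across 24 settings the fits kept their direction for every gene called, except for Nek2, which with the brightest of its 3 probe sets of unique type read 0.10 between untreated populations and 0.091 over both treatments; another of them, also above the dim level, read -0.45 between untreated populations. Among medians of the 48 genes, that for vismodegib in Lgr5-positive cells changed sign, between -0.34 and 0.06 with arrays left out. The count of genes called changed by more than 1.5 times as follows. For vismodegib in Lgr5-positive cells, 3 became 0 when a 2-fold change was also required, and lay between 0 and 5 when each array was left out in turn. For vismodegib in Lgr5-negative cells, 6 became 3 with no filter and 3 with the mouse number as a replicate block, where treated and untreated mice share only a number, and lay between 0 and 8 with arrays left out. Between vismodegib populations, 3 became 0 with no filter, 0 with only the 4 arrays compared and 6 with the mouse as a replicate block, and lay between 0 and 6 with arrays left out. Between untreated populations, 38 lay between 14 and 38 with arrays left out, and the lowest count came without the Lgr5-negative array of untreated mouse 2. For the difference of the effects, 1 became 3 with the mouse as a replicate block and lay between 0 and 3 with arrays left out. Over both treatments the population count of 38 stayed between 27 and 44. For vismodegib over both populations, 4 became 2 with no filter, 2 with an intensity trend in the prior, 2 with the mouse number as a replicate block and 1 with a 2-fold change required, and lay between 0 and 5 with mice left out. The replicate block changed no other count by more than 1.5 times. Cyclic loess moved the median of all genes by at most 0.04. With no filter more genes are tested, and with an array left out fewer samples are fitted; the cause of the other changes was not tested. Each group has 2 mice, a group reduced to 1 array was assumed to vary like the others, and signals near the dim level limit what Ect2, Bub1 and Kif23 show.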
